A study of Arabidopsis thaliana with 8 samples.

Results

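The 4 libraries described here hold the transcriptome of whole rosettes of Arabidopsis thaliana, ecotype Col-0, genotype wild type. They were chosen by their genotype label, which 4 of the 8 libraries of the series carry, and no value of the other libraries, all from hta9 hta11 plants, entered any result. All 36796 loci of the count table were examined. The plants were 17 days old, had not bolted, grew on soil at 22 °C with 16 hours of light and 8 hours of dark per day, and were harvested 6 hours after lights on. Each library was made from poly(A) RNA of the pooled shoots of 5 plants taken at random, with a directional kit, so a value is an average over plants and over all cell types of the rosette. By its design text the series asks how a disturbed chromatin state contributes to transcript levels in hta9 hta11 plants, and the wild type is its control. Here the wild type is described alone: which transcripts were most abundant, which loci gave no counts, and which loci differed most and least between the 4 libraries.

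A rosette is mostly green leaf. Its mesophyll cells fix carbon with Rubisco, whose small subunits are encoded in the nucleus and imported into the chloroplast, and capture light with the chlorophyll-binding proteins of both photosystems. Leaves also hold transcripts that follow the time of day, set by interlocking repressors of the circadian clock, and transcripts that follow the state of the plant. Among these are the genes of jasmonate, the lipid hormone of wounding and herbivory: lipoxygenases (LOX) start its synthesis, allene oxide synthase and cyclases (AOS, AOC) and the reductase OPR3 continue it, and JAZ proteins repress the response until the hormone triggers their destruction.

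The 4 libraries summed to 36950208, 40635454, 38209930 and 32027511 counts in libraries 1, 2, 3 and 4, and 147823103 together. The numbers name the libraries and have no order. Values are counts scaled to 1000000 per library (CPM), given as mean ± SD of the 4 libraries (n = 4) or in libraries 1, 2, 3 and 4. CPM is not divided by transcript length, so levels of different loci are compared per kilobase of the longest annotated transcript, and values of 1 locus between libraries in CPM. Each library has its own pool of plants by the labels, though their protocol speaks of 3 biological replicates per genotype. A spread over libraries holds both biological and technical differences. Chloroplast-encoded loci took 0.583%, 0.629%, 0.469% and 0.421% of the counts of libraries 1, 2, 3 and 4, and mitochondrial loci 0.0446%, 0.0575%, 0.0433% and 0.0326%. The widest 95% Wilson interval of any share of counts given here spanned 0.0261 percentage points, which covers counting error only.

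Transcripts of photosynthesis led the list. The 80 members of lists for Rubisco small subunits and its activase, light-harvesting proteins, photosystem and electron transport subunits, the Calvin-Benson cycle and photorespiration took 18.9%, 17.0%, 17.6% and 17.2% of all counts in libraries 1, 2, 3 and 4, or 17.6% ± 0.846. They were 13 of the 15 loci with the highest mean CPM and 55 of the highest 100. The single most abundant locus, RBCS1A (AT1G67090, chromosome 1, 25048158 to 25049667, minus strand, build TAIR10.1), encodes a Rubisco small subunit and alone took 2.14% of the counts. It had 22933, 20503, 21629 and 20440 CPM in libraries 1, 2, 3 and 4. Its range was narrow, with a mean of 21376 ± 1173 CPM. LHCB1.3 (AT1G29930, named CAB1 in the annotation), a chlorophyll-binding protein of the antenna of photosystem II, followed with 17338, 14337, 14043 and 13091 CPM. Library 1 stood highest for it and the other 3 lay close together. RBCS3B, another Rubisco small subunit, had 8021, 8116, 8321 and 8396 CPM, nearly the same value in every library.

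**Figure D1:**
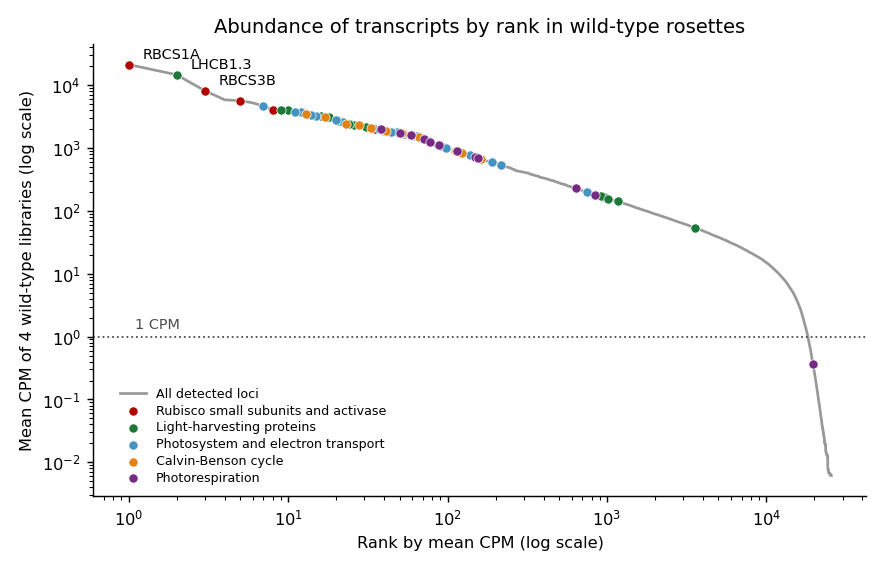
Mean CPM of the 4 wild-type libraries (vertical axis, log scale) against the rank of the locus (horizontal axis, log scale); the grey line joins all 25505 detected loci and coloured points mark members of 5 photosynthesis lists. RBCS1A is at the top left with 21376 CPM, most coloured points lie within the first 100 ranks, and the curve drops steeply below the dotted line at 1 CPM.

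The rest of the 15 most abundant loci were of the same kind with 2 exceptions. THI1 (AT5G54770), the chloroplast enzyme that makes the thiazole part of thiamine, averaged 5872 ± 435 CPM. RCA, the activase that removes inhibitors from Rubisco's active site, averaged 5691 ± 97.1 CPM. PSBO1 and PSBP-1 of the oxygen-evolving complex averaged 4662 ± 307 and 3720 ± 200 CPM, and the photosystem subunits PSBR and PSAF 3370 ± 352 and 3296 ± 182 CPM. RBCS2B averaged 4098 ± 140 CPM, LHCB5 4055 ± 264 CPM and LHCB1.5 (AT2G34420, named LHB1B2) 4028 ± 889 CPM. DRT112, a plastocyanin that carries electrons between the photosystems, averaged 3797 ± 459 CPM and CA1, a chloroplast carbonic anhydrase, 3523 ± 296 CPM. Parts of several of these transcripts recur in sister genes, in 18.3% of the stretches of 50 bases (50-base words) of RBCS3B, 22.0% of LHCB1.3 and 22.3% of LHCB1.5, so the split of counts among family members is uncertain.

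Per kilobase the order changed little. Among the 15 highest loci by CPM, 13 were also among the 15 highest per kilobase. RBCS1A led with 16858 CPM per kilobase, followed by LHCB1.3 with 11953, RBCS3B with 6788, RBCS2B with 4383 and PSBR with 4299 CPM per kilobase. Short transcripts moved up: PSAG, a photosystem I subunit of 780 bases, stood at 3282 CPM per kilobase and OEP6, annotated as a chloroplast outer envelope protein of 522 bases, at 3002 CPM per kilobase. Both were named after their values were seen.

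The locus with the sixth highest mean CPM is not a messenger RNA. AT3G06365 (chromosome 3, 14200215 to 14204208, plus strand) is annotated as an uncharacterized miscellaneous RNA and follows the 18S ribosomal RNA AT3G41768 (14197677 to 14199484) and the 5.8S ribosomal RNA AT3G41979 (14199753 to 14199916) on the chromosome. It had 4671, 6746, 5388 and 4222 CPM in libraries 1, 2, 3 and 4, and the 18S locus 1623, 2256, 1874 and 1442 CPM. Library 2 was highest and library 4 lowest at each of them, and their ratio stayed at 2.88, 2.99, 2.87 and 2.93 in libraries 1, 2, 3 and 4. The 18S locus and AT3G06365 together took 0.629%, 0.900%, 0.726% and 0.566% of the counts, after poly(A) selection.

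Counts were concentrated in few loci. The 10 most abundant loci took 7.80% of all counts and the top 1000 took 53.2%. Of all counts, 50% lay in 816 loci and 90% in 7614. By library the 10 most abundant loci took 8.43%, 7.66%, 7.78% and 7.39% of the counts of libraries 1, 2, 3 and 4.

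Outside photosynthesis, the glycine-rich RNA-binding protein GRP7, which cycles with the clock, averaged 2899 ± 243 CPM. Of the metallothioneins, small proteins that bind metal ions, MT2B averaged 1531 ± 72.5 and MT3 883 ± 130 CPM. Water channels of the vacuole membrane, TIP2 and GAMMA-TIP, averaged 979 ± 71.5 and 747 ± 55.4 CPM, and the plasma membrane channel PIP1B 584 ± 29.5 CPM. Among genes of nitrogen assimilation, the chloroplast glutamine synthetase GS2 (GLN2) averaged 2121 ± 111 CPM, the glutamate synthase GLU1 1237 ± 187 CPM and the nitrate reductase NIA2 906 ± 152 CPM. Of 8 phosphate starvation genes 4 averaged at least 1 CPM and of 13 heat shock genes 6 did. Over all 36796 loci the share was 49.4%, and over the 27444 protein-coding loci it was 64.5%. The sulfolipid synthase SQD2 averaged 68.9 ± 4.56 CPM and the chaperone HSP101 8.87 ± 0.630 CPM.

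Of the 36796 loci, 25505 had at least 1 count in the 4 libraries and 11291 (30.7%) had none. A count of 0 in all 4 libraries allows a level of up to 0.0203 CPM (3 counts in their joint total), so such loci were not detected at this depth. In every library 21768 loci had a count, and 3737 had a count in 1 to 3 libraries, of which 1759 were seen in a single library. At least 10 counts in each library were reached by 19393 loci, and a mean of at least 1 CPM by 18175. The number of loci detected differed little between libraries, at 23545, 23573, 23441 and 23171 in libraries 1, 2, 3 and 4.

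Detection followed the class of locus. Of 27444 protein-coding loci, 22885 (83.4%) were detected and 17703 (64.5%) averaged at least 1 CPM, and they held 98.4% of the counts. Of 3902 pseudogenes 14.2% were detected, of 3480 long non-coding RNAs 33.7%, of 287 small nucleolar RNAs 65.2% and of 625 transfer RNAs 4.32%. The libraries were made from poly(A) RNA, so shares and levels by class describe that fraction only. Some loci of these classes were well above the rest. The pseudogene SADHU1-1 (AT2G10410), a member of a retroposon family, had 141, 138, 133 and 122 CPM in libraries 1, 2, 3 and 4, while the median over the 18175 loci with at least 1 CPM was 17.9 CPM. GUT15 (AT2G18440), a non-coding RNA, averaged 169 ± 26.1 CPM, and the unnamed non-coding RNA AT4G13495 141 ± 21.3 CPM. AT4G38932, a long non-coding RNA, averaged 33.1 ± 6.6 CPM. The precursor TAS3, from which small interfering RNAs against auxin response factors are cut, averaged 17.6 ± 2.57 CPM, and TAS2 and TAS1A 11.3 and 10.2 CPM. Among chloroplast loci, 120 of 133 were detected, and ATCG01130 averaged 838 ± 208 CPM and ATCG00790 617 ± 102 CPM. Among mitochondrial loci, 14 of 31 were, and ATMG01390 averaged 220 ± 50.3 CPM and ATMG00020 216 ± 50.2 CPM.

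**Figure D2:**
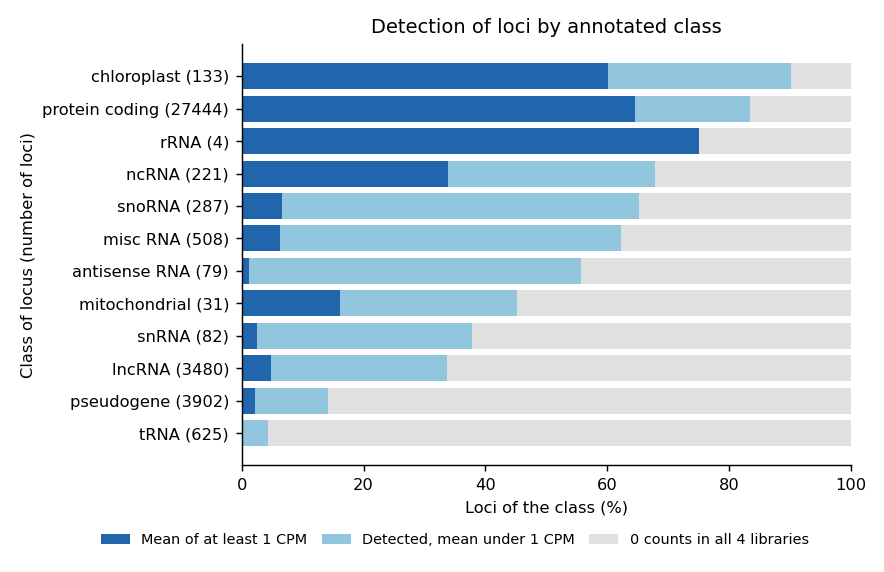
Share of the loci of each annotated class (horizontal axis, %) that averaged at least 1 CPM (dark blue), were detected with a lower mean (light blue) or had 0 counts in all 4 wild-type libraries (grey); the number of loci is given beside each class. Protein-coding loci reached 83.4% detected and 64.5% with at least 1 CPM, pseudogenes 14.2% and 2.23%, and transfer RNAs 4.32% and 0%.

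Protein-coding families, taken by words in the annotated product after the detection counts were known, fell into groups. Those of basic machinery were nearly complete: 331 of 344 loci named as ribosomal proteins, 43 of 45 named for the proteasome, 104 of 109 histone-related loci and 267 of 282 loci with pentatricopeptide repeats, which process organelle RNA, were detected. Immune receptors named TIR-NBS-LRR were also widely present, with 86 of 91 detected and 61 at 1 CPM or more. Families known for reproductive or pathogen-facing peptides lay at the other end. Only 3 of 81 loci named for ECA1 gametogenesis, 8 of 67 named for plant self-incompatibility and 28 of 113 defensin-like loci had a count. F-box loci, which pick proteins for destruction, were split, with 319 of 653 detected and 147 at 1 CPM or more. Of 120 loci named AGAMOUS-like or MADS-box, transcription factors of flowering and organ identity, 80 were detected but 20 reached 1 CPM.

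Some loci at 0 have a copy or a neighbour in the same place. Of 89 protein-coding loci whose transcript is identical to that of another locus, 77 were at 0, and 13.5% were detected against 83.6% of the 27355 others. Of 32 protein-coding loci with at least 90% of their exons under another locus on the same strand, 28 were at 0. With an overlap on the opposite strand the shares lay closer. Of 510 loci covered to at least 90% in that way, and to less than 10% on the same strand, 394 (77.3%) were detected, against 80.4% of 19915 loci with no overlap. At least 1 CPM was reached by 39.2% and 60.8% of them. Detection was also lower where another protein-coding locus holds, on either strand, more than 50% of a transcript's 50-base words. It was 84.2% of 20225 loci with none shared, 85.6% of 4150 with up to 10% and 81.6% of 2101 with over 10% and up to 50%. It was 66.4% of 538 with a share over 50% and up to 90%, and 53.6% of 418 with more. The metallothionein MT1A (AT1G07600), which lies under another locus on the same strand, had 0 counts in all 4 libraries, and LHCB1.5, covered on the opposite strand, averaged 4028 CPM. PGLP1 (AT5G36700), the phosphoglycolate phosphatase that begins photorespiration, had 51, 1, 0 and 2 counts in libraries 1, 2, 3 and 4, while AT5G36790 had 130, 193, 178 and 159 counts. Their transcripts share 94.1% and 96.3% of their words, so the level of neither locus can be read. How reads with several positions were counted is not given in the sources used here, and its part in these zeros was not tested.

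Along the chromosomes, undetected loci were concentrated. In 121 windows of 1 Mb with at least 15 protein-coding loci, the median share detected was 83.3%. It was under 50% in 10 windows and at least 90% in 26. The lowest was 5 of 25 loci between 13 and 14 Mb of chromosome 3, then 27 of 121 loci between 3 and 4 Mb of chromosome 2 and 6 of 16 loci between 11 and 12 Mb of chromosome 5. Pseudogenes made up 82.6%, 43.8% and 90.2% of all loci in these 3 windows. The highest was 97.0% of 133 loci between 30 and 31 Mb of chromosome 1. The windows were named after their values were seen.

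Markers of cell types were set against the label of whole rosettes before bolting. Most markers of leaf and shoot cell types averaged at least 1 CPM, and most markers of roots, flowers, pollen and seeds did not. All 5 guard cell markers averaged at least 1 CPM, between 6.14 CPM for the potassium channel KAT2 and 25.0 CPM for GC1 (AT1G22690). Of the regulators of the stomatal lineage, SPCH, which starts it, averaged 5.82 ± 0.842 CPM and MUTE, which ends its divisions, 1.67 ± 0.24 CPM. FAMA, which completes guard cells, averaged 19.3 ± 1.68 CPM, near the median of 17.9 CPM over loci with at least 1 CPM. Among 5 epidermal markers the lipid transfer protein LTP1 averaged 547 ± 31.2 CPM and the homeodomain factor ATML1 55.1 ± 10.6 CPM. Phloem was seen through all 7 markers, among them the sucrose carrier SUC2 with 200 ± 26.7 CPM and the lectin PP2-A1 with 198 ± 12.1 CPM. The 4 trichome markers averaged 1.12 to 9.33 CPM. Of 6 shoot meristem markers, CLV1, KNAT1 and STM reached 52.4, 4.82 and 6.31 CPM. The stem cell genes WUS and CLV3 had 5 and 3 counts in all 4 libraries together, and UFO had 18. In pooled shoots, fewer cells of a type and less RNA per cell cannot be told apart.

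Of 13 root markers 12 stayed below 1 CPM and 4 (EXPA7, RHD6, LRX1 and BRN1) were at 0. The exception was PYK10, a beta-glucosidase of endoplasmic reticulum bodies, with 67.2, 70.8, 81.4 and 113 CPM in libraries 1, 2, 3 and 4. Of 16 seed markers 7 were at 0 and none reached 1 CPM, and their summed level was 0.433, 0.714, 1.05 and 0.874 CPM. Of 9 pollen and anther markers 5 were at 0, with a summed level between 0.942 and 1.3 CPM. The 7 floral markers were all detected at low level, from 0.190 CPM for AP3 to 1.04 CPM for SEP1, and their sum lay between 3.75 and 4.34 CPM.

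At 6 hours after lights on, 15 of 19 clock genes averaged at least 1 CPM, and CCA1, LHY, RVE8 and PRR9 did not. CCA1 and LHY, repressors that peak in the morning, averaged 0.987 ± 0.14 and 0.979 ± 0.173 CPM, and the activator RVE8 0.869 ± 0.160 CPM. PRR9, the first of the pseudo-response regulators to peak after dawn, had 14 counts in all, or 0.0972 CPM, whereas PRR7, another of these regulators, had 21.8, 33.6, 25.7 and 32.2 CPM in libraries 1, 2, 3 and 4. TOC1, an evening repressor of CCA1, had 151, 177, 151 and 144 CPM in libraries 1, 2, 3 and 4. Of the evening complex, ELF3 had 48.9, 74.9, 52.8 and 62.9 CPM, and ELF4 and LUX averaged 50.8 ± 6.15 and 41.9 ± 4.02 CPM. GI, a large protein of the photoperiod pathway, averaged 23.7 ± 5.44 CPM. Clock members other than TOC1, ELF3 and CHE were named after their values were seen.

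The spread between libraries was first set against counting error. A chi-square test with 3 degrees of freedom, against the counts expected from the library totals, was run on the 20635 loci with an expected count of at least 5 in each library. It called 13774 of them (66.8%) at an adjusted p under 0.05, Benjamini-Hochberg over all loci tested, and the median chi-square per degree of freedom was 5.57. Since the libraries have deep counts and are separate pools of plants by the labels, such calls give only the size of the spread relative to counting error. The test compares no conditions. The CV, the SD over the 4 libraries as a percentage of the mean, had a median of 11.2% over the 18175 loci with at least 1 CPM, with a 10th percentile of 4.73% and a 90th of 23.7%. It fell with level, from a median of 14.3% between 1 and 10 CPM to 9.99% between 10 and 100, 9.18% between 100 and 1000 and 7.07% from 1000 CPM up. Counting error alone would give 7.82%, 3.20%, 1.27% and 0.392% in these bands.

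Because the CV depends on level, each locus was set against loci of matched mean. The relative CV is a locus's CV divided by the median CV of the locus and the 100 loci on either side of it in the order of mean CPM, so that 1 is typical. It was at least 2 for 1790 of 18175 loci (9.85%) and at least 5 for 80. The loci below were ranked by it or picked with it in view, so their values are a description and no test was made. The 200 most variable loci had a relative CV of at least 3.76, with 3.762 at the last one inside and 3.754 at the first outside. The 200 least variable had at most 0.187.

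**Figure D3:**
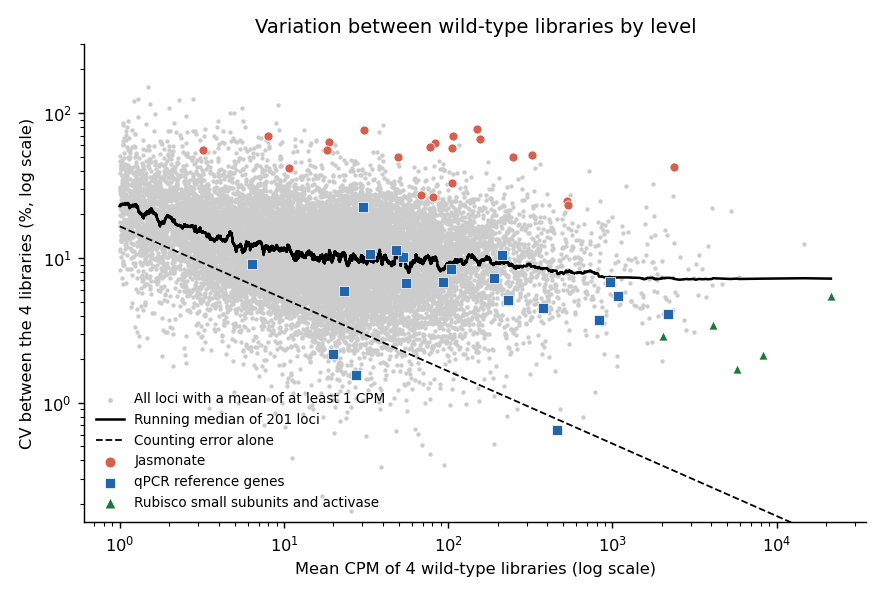
CV between the 4 wild-type libraries (vertical axis, %, log scale) against mean CPM (horizontal axis, log scale) for 18175 loci (grey points), with the running median of the CV (solid line) and the CV that counting error alone gives (dashed line). The jasmonate genes (red) lie above the solid line, the genes of Rubisco small subunits and activase (green) below it, and the qPCR reference genes (blue) around or below it with 1 exception.

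Deviations of the libraries followed transcript length. Among the shortest 3620 loci, 66 to 1171 bases, the median log2 ratio to the locus mean was 0.147 in library 1, -0.0545 in library 2, 0.0295 in library 3 and -0.124 in library 4. Among the longest 3618, 2567 to 16593 bases, it was -0.224, 0.197, -0.0821 and 0.102. Libraries 1 and 3 thus gave relatively more counts to short transcripts and libraries 2 and 4 to long ones. Across 18090 loci the correlation of the deviation with log2 length was -0.57, 0.47, -0.21 and 0.34 in libraries 1, 2, 3 and 4, a description over loci that share their library. Library 1 was lowest at 38.5% of the 18175 loci and library 2 highest at 36.5%. The most and the least variable 200 loci had nearly the same median length, 1595 and 1569 bases, against 1771 bases for all. Of the 200 most variable loci, 154 stayed among the 200 when the deviations were centred within 50 classes of length, an adjustment chosen after seeing the data. Of the 200 least variable, 30 did, so which loci were least variable depends on this choice. After it 10.4% of 18090 loci had a relative CV of at least 2.

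**Figure D4:**
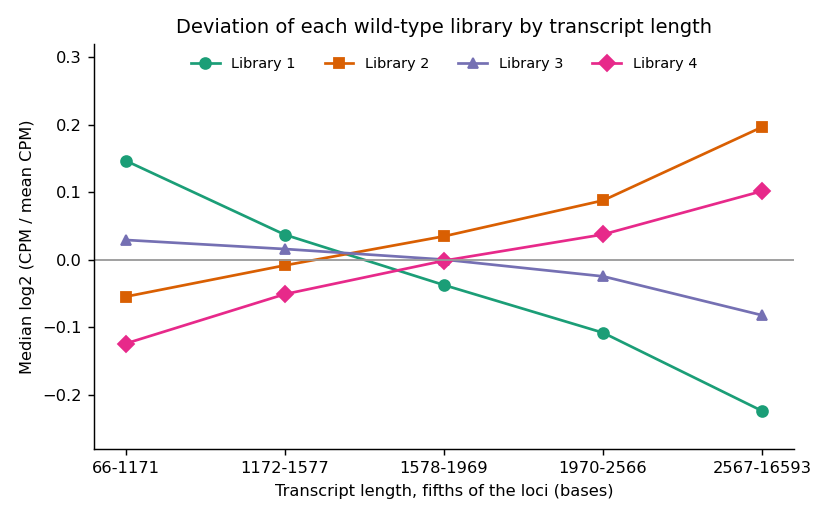
Median log2 ratio of a library's CPM to the mean of the 4 libraries (vertical axis) for 5 equal classes of loci by transcript length (horizontal axis, bases), with a line for each wild-type library. Library 1 runs down to -0.224 and library 2 up to 0.197 at the longest transcripts.

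The most variable loci fell mainly into 2 patterns. Of the 200, 104 were highest in library 3 and 62 in library 4, against 16.9% and 21.7% of all loci with at least 1 CPM. In the first pattern, held by 90 of the 200 (45.0%, against 8.04% of all loci), library 3 was highest and library 4 lowest. In the second, held by 44 (22.0%, against 13.6%), library 4 was highest and library 1 lowest. Among the 200, 12 (6.00%) were organelle loci, as were 85 (0.468%) of all 18175. Of the 200, 24 had 1 library far from the other 3 (4.10% of all loci did), and 185 (92.5%, against 97.4%) were protein coding. Of these 185, 9 share at least 50% of their 50-base words with another locus, 4.86% against 1.42% of all 17703 protein-coding loci at that level.

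Jasmonate genes stood in both patterns. All 21 measured members of the list of 22 had a relative CV of at least 2, against 9.85% of all loci, and their median was 5.68; the other member, THI2.1, averaged 0.459 CPM. In 17 library 3 was highest and in the other 4 library 4 was, and 14 were among the 200 most variable. The upstream sequences of 4 of them, LOX3 and AOC3 of the first pattern and VSP2 and LOX2 of the second, are shown because these genes carry the patterns. Each is the 250 bases before the annotated gene start, from RefSeq TAIR10.1, written 5' to 3' on the gene's strand. They lie at chr1:5977073-5977322 on the plus strand for LOX3, chr3:9408910-9409159 on the plus strand for AOC3, chr5:8502225-8502474 on the minus strand for VSP2 and chr3:16524995-16525244 on the plus strand for LOX2. Capitals mark matches on either strand to CACGTG (the G-box), CACATG (a variant that the jasmonate factor MYC2 can bind), to CGCGTT (a word of CAMTA factors), to TTGACC (the W-box of WRKY factors) and to TATAAA.
LOX3: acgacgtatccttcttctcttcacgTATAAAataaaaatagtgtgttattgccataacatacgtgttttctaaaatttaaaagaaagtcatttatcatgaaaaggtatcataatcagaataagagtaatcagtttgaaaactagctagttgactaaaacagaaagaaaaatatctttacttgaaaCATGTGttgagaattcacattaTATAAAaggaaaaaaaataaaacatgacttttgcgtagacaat
AOC3: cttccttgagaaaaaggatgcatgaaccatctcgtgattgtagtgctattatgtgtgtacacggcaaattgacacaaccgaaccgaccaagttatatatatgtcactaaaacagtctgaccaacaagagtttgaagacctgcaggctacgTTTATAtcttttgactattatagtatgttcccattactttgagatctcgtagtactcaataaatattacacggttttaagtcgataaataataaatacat
VSP2: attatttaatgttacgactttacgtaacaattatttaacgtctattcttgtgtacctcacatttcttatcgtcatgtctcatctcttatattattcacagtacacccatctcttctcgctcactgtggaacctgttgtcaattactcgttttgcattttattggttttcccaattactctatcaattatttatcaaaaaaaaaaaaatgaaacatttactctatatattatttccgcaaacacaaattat
LOX2: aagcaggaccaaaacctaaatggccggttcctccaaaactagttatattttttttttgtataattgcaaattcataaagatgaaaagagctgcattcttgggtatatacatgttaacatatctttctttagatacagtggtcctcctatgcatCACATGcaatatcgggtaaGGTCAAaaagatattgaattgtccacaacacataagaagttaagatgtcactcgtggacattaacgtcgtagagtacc
LOX3 holds CACATG with its first base 65 bases before the start and TATAAA at 43 and 225 bases. LOX2 holds CACATG at 97 and TTGACC at 78 bases, AOC3 holds TATAAA at 100 bases, and VSP2 holds none of the 5 words. CACATG was found in 5 of the 21 jasmonate windows (23.8%), in 20.5% of 185 windows of the most variable protein-coding loci, 9.05% of 199 of the least variable and 11.1% of all 27443. CACGTG was found in 4 of the 21 (19.0%), 8.65%, 5.03% and 6.49% of the same sets, CGCGTT in 9.52%, 4.32%, 1.51% and 2.59%, TTGACC in 9.52%, 13.0%, 18.1% and 12.2%, and TATAAA in 66.7%, 54.1%, 51.3% and 47.3%. A match is a run of letters, not a site.

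In the first pattern stood genes of synthesis (LOX3, LOX4, AOC1, AOC3 and OPR3) and repressors of jasmonate signalling. LOX3, a 13-lipoxygenase, had 123, 154, 294 and 49.3 CPM in libraries 1, 2, 3 and 4. AOC3, an allene oxide cyclase, had 29.3, 20.3, 63.6 and 9.37 CPM. OPR3, the peroxisomal reductase of the pathway, had 207, 216, 427 and 141 CPM. At each of the 3 genes libraries 1 and 2 lay between library 3, the highest, and library 4, the lowest. LOX4 had 77.8, 70.1, 155 and 30.8 CPM, and the cyclase AOC1 83.9, 87.1, 193 and 56.9 CPM. Of the JAZ repressors, JAZ1 had 48.7, 41.5, 83.1 and 24.7 CPM and JAZ5 17.8, 15.7, 35.1 and 6.81 CPM. The master regulator MYC2 was also highest in library 3 and lowest in library 4, with 96.0, 113, 148 and 64.4 CPM. Its level is uncertain, since another locus holds 98.5% of its 50-base words on either strand. Members other than LOX2, AOC2, AOS, VSP1, VSP2, LOX3, AOC1 and AOC3 were named after their values were seen.

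AOS, which makes the first allene oxide, and the cyclase AOC2 were highest in library 3 but not lowest in library 4. AOS had 421, 437, 706 and 543 CPM in libraries 1, 2, 3 and 4 and AOC2 432, 427, 669 and 618 CPM. In the second pattern stood VSP2, VSP1, LOX2 and CORI3. VSP2, a vegetative storage protein of leaves, had 61.6, 87.0, 130 and 318 CPM, and its neighbour VSP1 50.8, 60.0, 102 and 213 CPM. LOX2, a chloroplast 13-lipoxygenase, had 1439, 1894, 2358 and 3760 CPM. CORI3, an aminotransferase-like gene induced by jasmonate, had 174, 236, 327 and 551 CPM. At each of the 4 genes library 4 was highest and library 1 lowest, so library 4 held the lowest level of LOX3 and AOC3 and the highest of VSP2 and LOX2.

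**Figure D5:**
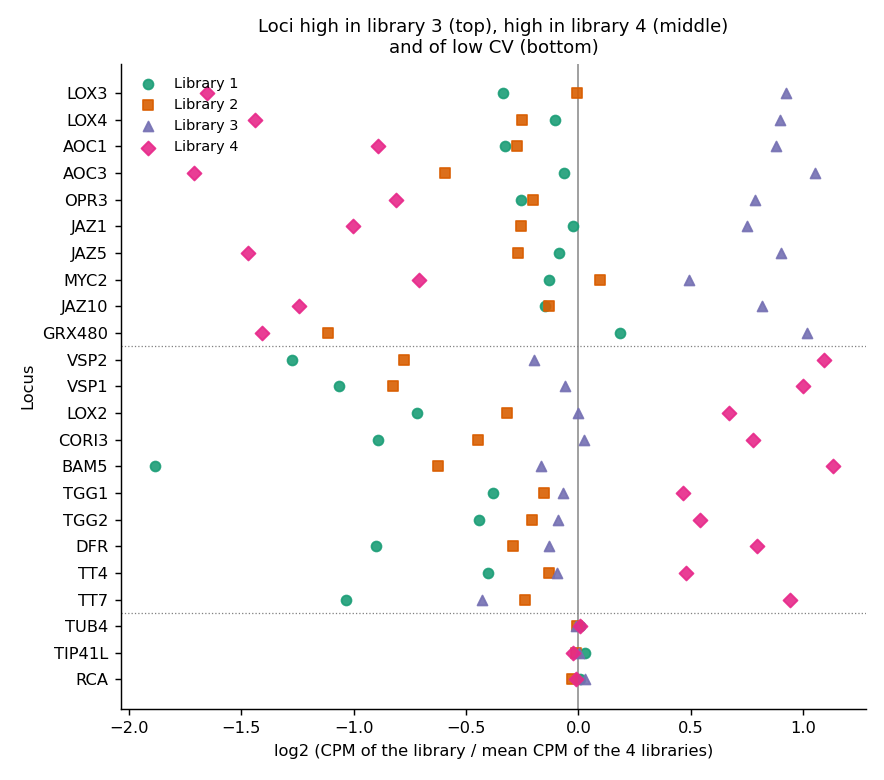
log2 ratio of the CPM in each wild-type library to the mean of the 4 libraries (horizontal axis) for 10 loci highest in library 3 and lowest in library 4 (top), 10 highest in library 4 and lowest in library 1 (middle) and 3 loci of low CV (bottom); each symbol is a library. Library 4 (diamonds) is at the far left in the top block and at the far right in the middle block, and the 4 symbols lie close together for TUB4, TIP41L and RCA.

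Genes of touch and rapid stress stood partly in the first pattern. Of 19 measured genes, 13 had a relative CV of at least 2, against 9.85% of all loci, with a median of 2.86. In 10 library 3 was highest, in 13 library 4 was lowest, and in 8 both held, against 16.9%, 31.1% and 8.04% of all loci. TCH3, a calmodulin-like protein named for its response to touch, was of the 8, with 285, 260, 390 and 220 CPM in libraries 1, 2, 3 and 4, and so was WRKY18 with 99.9, 90.4, 165 and 71.9 CPM. RRTF1, a redox-responsive transcription factor, had 21.7, 12.0, 21.7 and 2.90 CPM, level at the top in libraries 1 and 3 and lowest in library 4. EXO, which promotes growth under brassinosteroids, went the other way with 82.6, 62.6, 72.1 and 154 CPM. GRX480 (15.1, 6.13, 26.8 and 5.00 CPM), a glutaredoxin, PP2-A5 (16.1, 13.0, 29.2 and 4.65 CPM), a lectin-related protein, and AT1G15010 (11.1, 10.95, 21.5 and 2.81 CPM), annotated as a mediator subunit, belonged to the most variable loci between 10 and 100 CPM. FAMT, a methyltransferase, had 95.5, 82.5, 218 and 66.7 CPM. AT1G56660, annotated as a MAEBL domain protein, was high in libraries 1 and 3, with 184, 64.2, 147 and 26.5 CPM.

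Salicylic acid and iron genes stood partly in the first pattern. Of 14 measured salicylic acid genes 11 were highest in library 3, against 16.9% of all loci. In 7 library 3 was highest and library 4 lowest, against 8.04% of all loci. Of 12 iron genes 6 were highest in library 3, and in 5 library 4 was also lowest. PR1, the standard marker of salicylic acid signalling, had 3.90, 2.51, 11.4 and 0.781 CPM in libraries 1, 2, 3 and 4. Of the 14 measured genes of its list 6 reached a relative CV of 2, or 10 after the length adjustment. Over all loci the shares were 9.85% before the adjustment and 10.4% after it. The regulators EDS1 and NPR1 averaged 55.2 ± 9.17 and 41.9 ± 4.65 CPM and the transcription factor WRKY70 100 ± 14.5 CPM. Their relative CVs were 1.94, 1.11 and 1.63, and 3.26, 1.36 and 2.25 after the length adjustment. Of the 12 iron genes 6 reached 2, or 8 after the length adjustment, against the same shares of all loci. BHLH100, a transcription factor of iron deficiency, had 21.0, 17.7, 33.3 and 7.68 CPM, whereas the ferritin FER3, which stores iron, had 101.5, 95.6, 100.1 and 102.9 CPM, with a relative CV of 0.355. Of 8 measured cold and abscisic acid genes 5 reached 2, against 9.85% of all loci, and the dehydrin ERD10 had 329, 235, 352 and 147 CPM. Clock genes leaned to library 2 instead: of the 15 with at least 1 CPM, 11 were highest there, against 36.5% of all loci, and ELF3, GI and PRR7 had a relative CV of at least 2. Library 2 also favoured long transcripts, and after the length adjustment the relative CVs of ELF3, GI and PRR7 were 1.54, 1.18 and 1.16 and 1 clock gene reached 2. AT1G54410, a dehydrin outside the list and among the most variable loci from 1000 CPM, had 2593, 1463, 1685 and 1333 CPM, highest in library 1.

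Genes of glucosinolates and flavonoids stood mostly highest in library 4. BAM5, a beta-amylase, had 10.9, 26.1, 35.9 and 88.2 CPM in libraries 1, 2, 3 and 4, and AT4G17470, annotated as a hydrolase, 14.9, 21.6, 38.1 and 77.5 CPM. The myrosinases TGG1 and TGG2, which split glucosinolates when tissue is damaged, had 1797, 2103, 2229 and 3233 CPM and 892, 1050, 1138 and 1762 CPM. Library 4 was highest at each of the 4 genes and library 1 lowest. MAM1, which lengthens the side chain of methionine-derived glucosinolates, had 273, 285, 297 and 475 CPM. Of 13 glucosinolate genes 9 had a relative CV of at least 2 and 9 were highest in library 4, against 9.85% and 21.7% of all loci. All 10 measured flavonoid genes were highest in library 4, against 21.7% of all loci. Of these genes 7 had a relative CV of at least 2, against 9.85%. The summed level of the list was 254, 295, 320 and 501 CPM. Chalcone synthase TT4 had 119, 143, 147 and 219 CPM, the flavonoid hydroxylase TT7 4.76, 8.27, 7.25 and 18.8 CPM and the reductase DFR 21.2, 32.3, 36.1 and 68.4 CPM. Xylem markers were highest in library 4 as well, in 6 of 6 measured, against 21.7% of all loci. Their summed level was 91.1, 76.1, 96.0 and 143 CPM, and the secondary wall cellulose synthase CESA4 had 9.50, 9.99, 11.4 and 19.3 CPM. All 6 sulfur deficiency genes were highest in library 4 and lowest in library 2, against 4.18% of all loci. The reductase APR3 of sulfate assimilation had 213, 168, 195 and 232 CPM. PYK10 and the 4 trichome markers, too, were highest in library 4; the part of cell composition in these differences was not tested.

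Among low loci, between 1 and 10 CPM, the largest relative CV, 9.84, belonged to AT1G09500, annotated as an NAD(P)-binding protein, with 3.63, 5.09, 3.17 and 24.9 CPM in libraries 1, 2, 3 and 4. It was high in library 4 alone, as were the ribonuclease RNS1 with 0.514, 0.861, 1.26 and 6.49 CPM and CSLG2, annotated as cellulose synthase-like, with 0.758, 1.28, 1.1 and 8.09 CPM. The glycosyltransferase UGT76E12 and the dehydrogenase-like ELI3-2 had 0.920, 2.19, 4.71 and 12.0 CPM and 1.25, 3.27, 5.44 and 12.6 CPM. AT1G58848, a disease resistance gene of the CC-NBS-LRR class, had 44, 59, 537 and 172 counts, or 1.19, 1.45, 14.1 and 5.37 CPM. AT1G59218, named after its values were seen, shares 88.1% of its words with other loci, as AT1G58848 does for 88.0%, and had 3, 81, 2 and 8 counts. Neither level can be read on its own.

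Light-harvesting and photosystem genes mostly stood highest in library 1. The 5 genes of Rubisco small subunits and activase had a median relative CV of 0.394, or 0.904 after the length adjustment, and their summed level was 43037, 40230, 41946 and 40477 CPM in libraries 1, 2, 3 and 4. The 15 Calvin-Benson genes had 0.817, or 0.798 after the adjustment, and none of these 20 genes reached 2 in either case. Light-harvesting genes were highest in library 1 in 17 of 20 cases, against 24.9% of all loci, and photosystem and electron transport genes in 22 of 28. Their summed levels were 52822, 43879, 44259 and 42350 CPM and 57468, 48353, 52389 and 50823 CPM. Library 1 is also the one that favoured short transcripts, and the part of length in this excess was not tested. LHCB1.5 had 5341, 3783, 3597 and 3392 CPM, and LHCB1.4 (AT2G34430, named LHB1B1) 1105, 764, 483 and 524 CPM, the only light-harvesting members with a relative CV of at least 2. GLDP1, the P-protein of glycine decarboxylase in photorespiration, was lowest in library 1, with 1166, 1781, 1439 and 1977 CPM. The T-protein of the same complex (AT1G11860) had 1767, 1688, 1797 and 1748 CPM, and the serine hydroxymethyltransferase SHM1 that works with it 1957, 1980, 1995 and 2049 CPM. The 80 chloroplast-encoded loci with at least 1 CPM had a median relative CV of 2.2, and 45 of them reached 2, against 9.85% of all loci. ATCG01130 had 1082, 909, 767 and 593 CPM in libraries 1, 2, 3 and 4, highest in library 1.

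Of the 200 least variable loci, 199 (99.5%) were protein coding, against 97.4% of all loci with at least 1 CPM, the highest CV among them was 3.96%, and 190 lay below the CV of counting error, so their rank among themselves carries no information at this depth. In the band from 10 to 100 CPM, AKR4C10, an aldo-keto reductase, had 25.8, 25.7, 25.8 and 25.7 CPM in libraries 1, 2, 3 and 4, and RGTB1, a subunit of the enzyme that attaches lipids to Rab proteins, 39.1, 39.1, 38.8 and 38.8 CPM. From 100 to 1000 CPM, the E1 alpha subunit of plastid pyruvate dehydrogenase (AT1G01090) had 189, 190, 188 and 188 CPM and the alpha tubulin TUA6 662, 667, 656 and 656 CPM. From 1000 CPM up, the lowest relative CVs belonged to RCA with a CV of 1.71%, the subunit PDE334 of the chloroplast ATP synthase with 1.80%, SHM1 with 1.96% and PTAC16 with 2.11%. After the length adjustment the relative CV of RCA rose from 0.237 to 0.904 and that of SHM1 from 0.27 to 0.613. The 7 cell division genes had a median relative CV of 0.509, or 0.918 after the length adjustment, and a summed level of 136.5, 133.3, 134.7 and 140.3 CPM.

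The 21 reference genes commonly used to normalise quantitative PCR mostly had a typical or low spread for their level. Of them 20 averaged at least 1 CPM, their median relative CV was 0.764, or 0.959 after the length adjustment, and 1 of the 20 reached 2, against 9.85% of all loci. The tubulin TUB4 had 462, 457, 456 and 462 CPM in libraries 1, 2, 3 and 4 and a relative CV of 0.083. TIP41L (AT4G34270) had 27.8, 27.1, 27.3 and 26.8 CPM and 0.153, and UBC21 (AT5G25760, named PEX4) 20.03, 20.01, 20.05 and 19.17 CPM and 0.213. After the length adjustment their relative CVs were 0.519, 0.259 and 0.816, and TUB4 and TIP41L are among the 200 loci whose order carries no information. ACT2 had 823, 871, 812 and 802 CPM, EF1A (AT5G60390) 2254, 2060, 2248 and 2188 CPM, and UBQ10 984, 867, 993 and 1013 CPM. The phosphatase subunit PP2AA3 had 53.2, 52.0, 56.1 and 60.4 CPM, GAPC2 1141, 1008, 1101 and 1046 CPM, and UBC9 96.9, 100, 117 and 103 CPM. The remaining members with at least 1 CPM (ACT8, YLS8, AT4G33380, RHIP1, AT5G15710, PTB1, TUB6, CBP20, UBQ5 and APT1) had relative CVs from 0.530 to 1.13. SAND (AT2G28390) was the 1 above 2, with 24.7, 38.6, 24.5 and 32.7 CPM, high in libraries 2 and 4. The helicase gene AT1G58050 had 4 counts in all 4 libraries together, 0.0266 CPM, and could not serve as a reference at this depth.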

How the data were processed

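Poly(A) RNA of 4 pools of wild-type rosettes was sequenced. The authors deposited whole-number counts per locus. The TAIR10 build is listed in the submitters' processing notes beside fastp 0.23.2, HISAT2 2.2.1 and SAMtools 1.17. Which program counted reads, on which strands, and what became of reads matching several places is not given in the sources used here. In Python 3.11.15 with pandas 2.3.3 and SciPy 1.17.1, each count was divided by its column total and scaled to CPM; edgeR 4.0.16 gave an alternative scaling. Symbols, classes, lengths and upstream sequences came from RefSeq TAIR10.1, which matched 36632 of 36796 loci; the 164 organelle loci are named by identifier. CV, relative CV and a chi-square test against counting error were computed from these values, with no test between conditions, since 1 genotype was used. The calculations were first tested on simulated data. Loci named are the 15 highest by mean CPM, the 6 most and 4 least variable in each of 4 bands of mean CPM, of which not all are printed, up to 3 per list with the most variable member, all reference genes and markers, of which some are given by range, and up to 3 per non-coding class. The 34 gene lists and the rules were chosen with earlier results of these data known. Alternatives were other scalings, filters, windows, a length adjustment and each library left out. The labels' protocol speaks of 3 biological replicates per genotype, and 4 libraries carry the wild-type label.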

Additional observations from a re-analysis of the deposited data

Results flagged for a closer look

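Of 198 named loci, 10 had 1 library far from the other 3, as a gap to the nearest library of most of the range over the 4, and 1 of 33 summed lists did. Chance alone gives about 1 in 20, and the same rule called 745 of all 18175 loci with at least 1 CPM (4.10%). The 10 of 198 lie near that share, and some of the 198 were named for a high relative CV. Library 4 stood apart for 7 of the 10 loci. The split of the 745 loci by library is not given here, so the 7 have no share over all loci beside them. AT1G09500, RNS1 and CSLG2, which are among the 7, were named for a high relative CV. Library 4 had 24.9 CPM of AT1G09500, 6.49 CPM of the ribonuclease RNS1, 8.09 CPM of CSLG2 and 475.2 CPM of the glucosinolate gene MAM1, each the highest of the 4 libraries. It also had 7.90 CPM of the heat shock protein HSP70 (AT3G12580) and 111.1 CPM of the water channel PIP1A, the highest of each. Its 19.2 CPM of the reference gene UBC21 (PEX4) was the lowest of the 4. The summed level of the heat shock list was 39.2 CPM in library 4. Library 2 stood apart for the non-coding RNA GUT15 with 207.7 CPM and for the guard cell factor FAMA (FMA) with 21.8 CPM, and library 1 for the metallothionein MT3 with 1075.9 CPM.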

How the results depend on the processing

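No paired analysis was possible because only the wild-type libraries were used and nothing was compared between groups. Over other scalings, filters, windows, a length adjustment and each library left out, 118 recomputed summary values stayed close to the ones reported and 4 moved. Close means within 1.5 times for a count and within 1 SD for other values. The 200 least variable loci were not part of this tally, and 30 of them stayed among the 200 after the length adjustment. The median CV of 11.2% became 10.2% for loci with a mean of at least 5 CPM and 8.51% after the length adjustment, which was chosen after seeing the data; the cause was not tested. Leaving out 1 library at a time gave a median CV between 9.46%, without library 1, and 11.8%. Of the 200 most variable loci, 105 to 167 remained when 1 library was left out, and the lowest number came without library 4. Without library 1 or library 2 the 200 were ranked anew. Of them 124 to 145 were highest in library 3 and 126 to 136 lowest in library 4. With all 4 libraries these numbers were 104 and 105. A locus then has more libraries in which it can be highest or lowest, so the numbers are not directly comparable. Shares over all loci were not computed for the fits with 1 library left out. The jasmonate genes with a relative CV of at least 2 numbered 19 to 21, a setting added after seeing the data. The number of undetected loci ranged from 11641 to 11845 and that of loci beyond counting error from 11428 to 12974, with fewer counts in each such fit. After the length adjustment the members with a relative CV of at least 2 became 10 from 6 for salicylic acid, 6 from 2 for sulfur deficiency, 0 from 2 for nitrogen assimilation, 1 from 3 for the clock, 2 from 0 for phloem and 2 from 1 for photorespiration. In 24 of 32 lists with a measured member the number stayed within 1.5 times. Of the levels of named loci, 5 of low spread moved when nuclear loci alone made the total. Depth limits the low end: 1 count equals 0.0246 to 0.0312 CPM, and counting error alone gives a CV of 7.82% between 1 and 10 CPM. With 4 libraries the CV of a single locus is itself imprecise.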

Other observations

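Genes of darkness and senescence were low to moderate and uneven. Of the 7 measured members, 4 had a relative CV of at least 2, against 9.85% of all loci. DIN10, which is induced by darkness, had 216, 272, 257 and 382 CPM in libraries 1, 2, 3 and 4, and SAG13 2.76, 6.18, 5.63 and 8.96 CPM. Library 4 was highest and library 1 lowest at both. SAG21, a late embryogenesis protein, ran differently with 80.3, 55.8, 86.3 and 46.7 CPM, highest in library 3 and lowest in library 4. NYE1, which starts the breakdown of chlorophyll, averaged 10.3 CPM.

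The cold genes KIN2 and COR47 had 629, 471, 485 and 433 CPM and 340, 266, 323 and 209 CPM, with library 1 highest and library 4 lowest. The nitrate reductase NIA2 had 761, 1093, 806 and 966 CPM, high in libraries 2 and 4, with a relative CV of 2.29, or 0.805 after the length adjustment. Aquaporins, metallothioneins with glycine-rich proteins, and precursors of trans-acting small RNAs had no measured member with a relative CV of at least 2, and 8, 7 and 4 of them were measured. After the length adjustment 1, 1 and 0 of them reached 2. Over all loci the shares were 9.85% before the adjustment and 10.4% after it.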
